A study of Mus musculus with 19 samples.

Results

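CCR2+ve monocytes were sorted from the bone marrow of mice given a 7 d cytokine infusion (inflamed) and of resting mice, and their transcriptomes were compared across all genes. The comparison used 8 of the 19 libraries of the series, 4 inflamed and 4 resting, chosen by their labels. All mice were described as female REP mice of 8 to 12 wk, a reporter strain in which the inflammatory CC chemokine receptors are each marked by a fluorescent protein. The sorted cells were CD11b+ Ly6C++ Ly6G- SiglecF- and carried the CCR2 reporter (mRuby2) without the CCR1 reporter. Inflamed mice bore an osmotic pump that released IL-3 at 15 ng/h, IL-6 at 16 ng/h, GM-CSF at 15 ng/h and IFN-α at about 2 ng/h. The study's methods name IFN-α, as here, but a panel of the study names IFN-γ among the infused cytokines. The study also used pumps with vehicle, but the labels do not say whether the resting libraries came from such mice, and they give no preparation batch. The cytokines, the pump, its surgery and any shared handling therefore cannot be told apart. The labels also do not say whether each library came from a separate mouse, so p-values measure the spread between these libraries, which may be technical.

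CCR2 is the receptor through which Ly6C-high monocytes leave the bone marrow, and these cells are short-lived precursors of many inflammatory macrophages. IL-3 and GM-CSF signal through receptors with a common β-chain and act largely through JAK2 and STAT5, IL-6 acts through gp130 and STAT3, and IFN-α acts through IFNAR1, IFNAR2, TYK2 and JAK1 on STAT2 and IRF9, among others. These pathways also induce their own inhibitors, such as the SOCS proteins and CIS, and type I interferon turns on a broad set of antiviral genes.

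The resting libraries held between 23274596 and 25261675 reads on genes, and the inflamed libraries between 22502998 and 24293969. Levels are given in CPM, the reads on a gene scaled to the normalized size of its library. CPM values are not divided by gene length, so a level is compared between libraries and not between genes. The first principal component held 51.0% of the variance and parted the states, and inflamed replicate 4 stood furthest from the others of its state (Pearson r across genes 0.972 to 0.980). Resting replicate 1 went against the female label in 1 respect. It had 0 CPM of Xist, the RNA that coats the inactive X chromosome, against 46.5 to 138 CPM in the other resting libraries and 88.9 to 160 CPM in the inflamed ones. The Y-linked genes Ddx3y, Eif2s3y, Kdm5d and Uty had at most 4 reads in any of the 8 libraries. Some counts that move without that library are given beside the results, and counts without such a remark can move as well. All 19 monocyte markers had a mean above 10 CPM, and 1 rose (Fcgr1) and 5 fell (Cx3cr1, Ly86, Irf8, Spi1 and Klf4). Their summed level was 68670 to 77020 CPM at rest and 72100 to 87310 CPM after infusion, of which 1 gene, Lyz2, made up 44.4 to 52.0%. Lyz2, the macrophage lysozyme, had 37047 ± 1123 CPM at rest and 35330 ± 4109 CPM after infusion (SD, n = 4 each).

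Of 18652 genes tested, 1748 were upregulated and 3579 were downregulated in inflamed CCR2+ve monocytes, at an adjusted p-value under 0.05 and at least a 2-fold change (edgeR quasi-likelihood test, Benjamini-Hochberg adjustment over all genes). Without resting replicate 1 the counts were 1905 and 3253. The 1748 and 3579 were 9.37% and 19.2% of the genes tested, and they are the background against which each gene group is read. Large decreases outnumbered large increases. At least an 8-fold decrease was called for 323 genes with 10 CPM or more in the higher state, against 32 genes with an increase of that size. In 4878 of the 5327 called genes, no inflamed library overlapped a resting one. Calls by p and fold on these same libraries favour such genes, so the count is no added support. The median log2 fold change over all genes was -0.10. In bulk samples, fewer cells of a type and less RNA per cell cannot be told apart.

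**Figure D1:**
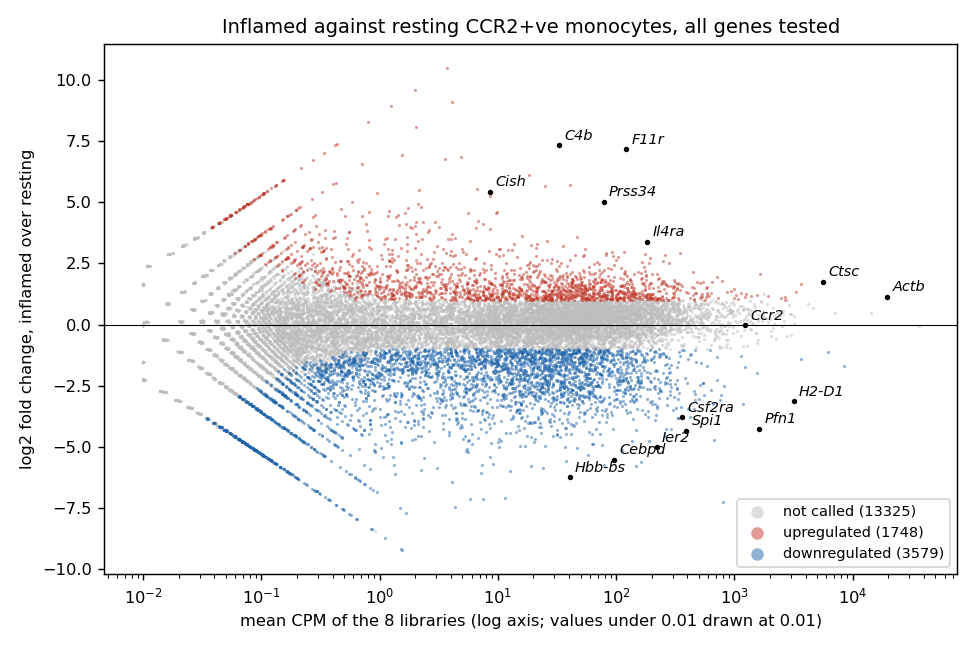
Each point is a gene, with its mean CPM over the 8 libraries on a log axis and its log2 fold change, inflamed over resting, on the vertical axis. Colours mark the 1748 upregulated and 3579 downregulated genes, and well-expressed genes such as Spi1 (log2 fold change -4.34) and Pfn1 (-4.25) lie far below 0.

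The upregulated gene with the smallest p was F11r, which encodes the junctional adhesion molecule JAM-A (chromosome 1, 171437535 to 171464603, GRCm38). F11r had 2.12, 1.64, 1.92 and 1.08 CPM in the resting libraries and 207, 261, 248 and 248 CPM in the inflamed ones. It was barely detected at rest and well expressed in every inflamed library (log2 fold change 7.15, SE 0.18, edgeR adjusted p = 2.95e-12). Il4ra, the α-chain of the IL-4 and IL-13 receptors, rose from 32.4 ± 4.12 to 336 ± 29.4 CPM, and C4b, a complement component, rose from 0.399 ± 0.314 to 65.5 ± 12 CPM. C4b has a near-identical copy, between which uniquely mapped reads cannot always decide. Emilin1, an extracellular matrix glycoprotein, rose from 21.2 to 163 CPM. Kcnab2, a potassium channel β-subunit, and Skiv2l, an RNA helicase that assists the exosome, rose by 2.53 and 2.83 on the log2 scale.

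Genes were also named by their difference in CPM, which is not a ranking per length. Actb, cytoplasmic β-actin, rose from 12244 ± 666 to 26825 ± 2226 CPM. Ctsc, the cathepsin that activates granule proteases, rose from 2579 ± 414 to 8699 ± 878 CPM, and Fn1 (fibronectin) rose from 1695 ± 273 to 3686 ± 274 CPM. Eno1, Pkm and Flna, named in the same way, are described with their groups.

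The smallest p-values among the decreases belonged to Spi1, Lyl1, Ier2, Otulinl, Uqcrfs1 and Ndfip1. Spi1 encodes PU.1, the transcription factor on which the myeloid lineage depends (chromosome 2, 91082390 to 91115756). Its level was 718, 681, 778 and 815 CPM in the resting libraries and 36.2, 35.1, 36.3 and 40.4 CPM in the inflamed ones. All inflamed libraries lay far under all resting ones, with little spread in either state (log2 fold change -4.34, SE 0.11, edgeR adjusted p = 2.95e-12). Lyl1, a basic helix-loop-helix factor of hematopoietic cells, fell from 261 ± 9.63 to 9.59 ± 0.899 CPM. Ier2, an immediate early gene, fell from 426 ± 31.6 to 13.3 ± 1.55 CPM, and Otulinl from 554 to 28.8 CPM. Ndfip1, an adaptor of NEDD4 ubiquitin ligases, fell by 4.26 on the log2 scale.

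The decreases named by their difference in CPM were Chil3, H2-D1, B2m, Tmsb4x, Pfn1 and Serp1. Chil3, the chitinase-like protein Ym1, had 6792, 10276, 15715 and 18968 CPM at rest and 4139, 5970, 4247 and 1636 CPM after infusion. It varied widely in both states, and the call was lost without resting replicate 3 or 4 (edgeR adjusted p = 0.0675 and 0.0673). The copies Chil3 and Chil4 are alike in sequence, so that the split of their reads is uncertain. Serp1, a protein of the ER translocon, fell from 2129 ± 229 to 224 ± 32 CPM.

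Receptors for the infused cytokines moved in opposite directions by subunit. Of the 7 receptor genes tested, 2 rose and 3 fell. Csf2ra, the GM-CSF receptor α-chain, had 651, 697, 688 and 644 CPM at rest and 48.2, 41, 51.5 and 52.6 CPM after infusion. It fell in every inflamed library, with a log2 fold change of -3.79 (SE 0.11, edgeR adjusted p = 1.01e-11). The common β-chain, Csf2rb, had 191, 167, 208 and 199.9 CPM at rest and 478, 506, 493 and 559 CPM after infusion, and rose without overlap (log2 fold change 1.41, SE 0.10, edgeR adjusted p = 2.48e-08). Csf2rb2, the IL-3-specific β-chain found in mice, rose from 21.9 ± 3.13 to 121 ± 11.4 CPM. Csf2rb and Csf2rb2 are close copies, and reads that map to both were not counted. Il6ra, the ligand-binding chain of the IL-6 receptor, fell from 443 ± 51.5 to 112 ± 23.6 CPM, and Ifnar2 fell from 139.8 ± 8.34 to 33.8 ± 6.97 CPM. Ifnar1 had 204 ± 17.7 CPM at rest and 114 ± 27.6 CPM after infusion, which passed the adjusted p (2.12e-04, edgeR) but not the fold cutoff. Il6st, the gp130 chain, was almost undetected, with 0.0414 to 0.261 CPM at rest and 0 to 0.0473 CPM after infusion, and Il3ra was not analysed here.

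Downstream of these receptors, 7 of 21 JAK-STAT genes rose and 5 fell (33.3% and 23.8%), and their median log2 fold change was 0.29. Cish encodes CIS, a feedback inhibitor that STAT5 induces (chromosome 9, 107296026 to 107302784). Its level was 0.249, 0.522, 0.393 and 0.373 CPM at rest and 11.3, 19.8, 14.7 and 21.6 CPM after infusion. Cish was near the detection limit in each resting library and present in each inflamed one (log2 fold change 5.43, SE 0.29, edgeR adjusted p = 8.70e-10). Socs3, an inhibitor induced through STAT3, rose from 2.77 ± 1.58 to 13 ± 4.18 CPM, and Pim1, a kinase induced through STAT5, rose from 18.3 ± 4.28 to 67 ± 19 CPM. Socs1, which restrains interferon signalling, went the other way, from 13.2 ± 4.67 to 0.839 ± 0.452 CPM, and Pim3 fell from 9.26 to 1.52 CPM. Of the kinases, Tyk2 rose from 56.9 ± 3.28 to 321 ± 40.7 CPM and Jak1 fell from 313 ± 36.8 to 108 ± 17.3 CPM. Among the STAT genes, Stat2, Stat5a and Stat6 rose, with log2 fold changes of 1.35, 1.28 and 1.22, and Stat3 fell from 376 to 152 CPM.

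**Figure D2:**
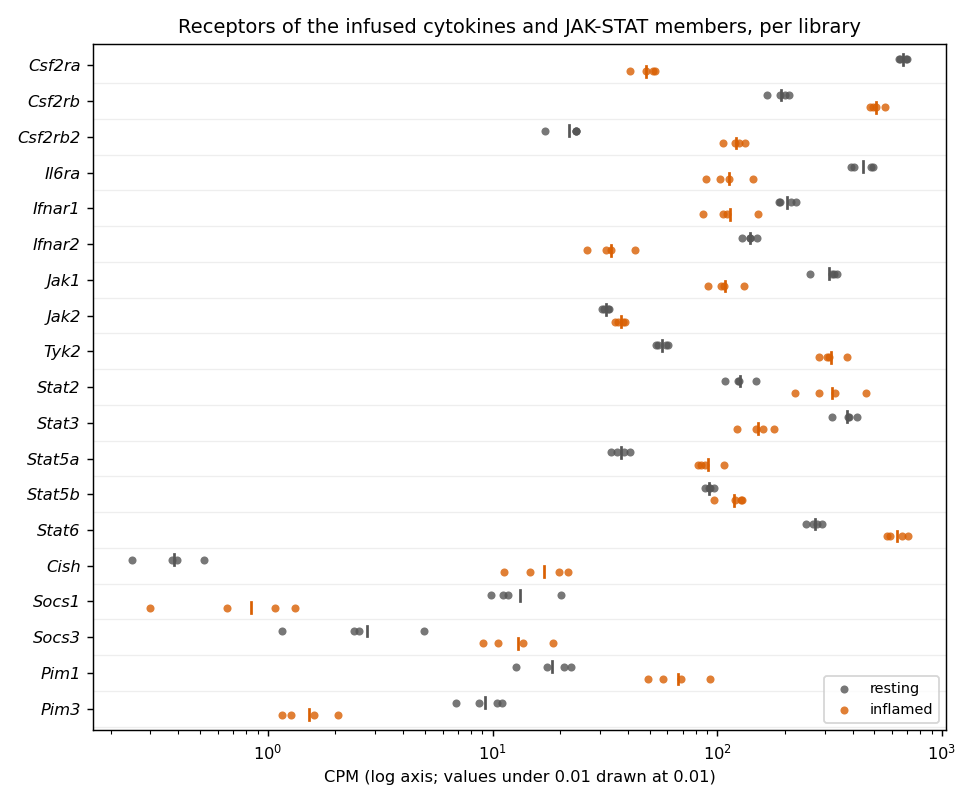
Points are single libraries and short bars the means of 4, in CPM on a log axis, for receptors of the infused cytokines and JAK-STAT members. Csf2ra and Csf2rb part in opposite directions with no overlap, and Cish is under 1 CPM in all resting libraries and above 10 CPM in all inflamed ones.

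Of 32 type I interferon-stimulated antiviral genes, 8 rose and 2 fell (25% and 6.25%), with a median log2 fold change of 0.41. Without resting replicate 1 these counts were 11 and 1. Of the 8, 6 belong to the oligoadenylate synthetase family, whose active members make the activator of RNase L. Oas3 had 100.5, 60.5, 49.9 and 76.7 CPM at rest and 329.8, 415, 526 and 452 CPM after infusion, with no overlap (log2 fold change 2.58, SE 0.20, edgeR adjusted p = 7.16e-08). Oas1a rose from 156 ± 40.1 to 494 ± 61 CPM, and reads shared with its close copies were not counted. Eif2ak2 (the kinase PKR) and Zbp1 (a nucleic acid sensor) rose by 1.18 and 1.02 on the log2 scale, and Zbp1 was under 2-fold without resting replicate 3 or inflamed replicate 3. Of the other 22 genes, 7 were higher and 1 was lower at an adjusted p under 0.05 but under 2-fold (edgeR), and 14 did not pass the adjusted p. Ifit1 had 100 ± 27.5 CPM at rest and 115 ± 50.7 CPM after infusion, and Mx1 had 66.3 and 68.1 CPM. The 2 that fell were Cmpk2, from 243 ± 19.7 to 29.8 ± 8.24 CPM, and Rsad2 (viperin), from 74.9 ± 24.5 to 36.8 ± 11.1 CPM. Rsad2 was near the cutoff, and was under 2-fold with DESeq2 and without resting replicate 1 or 4 or inflamed replicate 1 or 2. Of 17 interferon-inducible GTPases, 7 rose and 0 fell, and without inflamed replicate 4 the 7 became 4. Gbp7 rose from 129 ± 29.9 to 398 ± 131 CPM, and Gbp5 had 9.80, 8.06, 6.79 and 7.87 CPM at rest and 13.3, 17.2, 55.4 and 28.6 CPM after infusion. The summed level of the GTPases ranged from 1171 to 3549 CPM over the inflamed libraries, a wider range than the 936 to 1454 CPM at rest.

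Many of these genes are known for an interferon-stimulated response element in the promoter, and 7 promoters with its letters are shown because they did not move alike. The motif searched was GAAANNGAAA on both strands, copies being allowed to overlap, in the 250 bases before each RefSeq gene start (GRCm38.p6). It was found in 3.04% of 27025 promoters, and in 3.05% of the upregulated, 2.47% of the downregulated and 2.95% of the other genes with a promoter in the table. Capitals mark the motif in the direction of the gene, and a copy on the other strand reads TTTCNNTTTC.
Oas1a, upregulated, chr5:120907526-120907560, minus strand: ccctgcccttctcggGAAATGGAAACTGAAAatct
Oas3, upregulated, chr5:120777710-120777749, minus strand: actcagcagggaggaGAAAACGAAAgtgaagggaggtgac
Gbp7, upregulated, chr3:142530268-142530307, plus strand: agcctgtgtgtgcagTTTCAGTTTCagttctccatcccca
Ifit1, not called, chr19:34640770-34640828, plus strand: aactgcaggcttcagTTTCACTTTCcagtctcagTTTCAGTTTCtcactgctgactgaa
Isg15, not called, chr4:156200860-156200911, minus strand: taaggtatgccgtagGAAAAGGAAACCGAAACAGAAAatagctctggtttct
Rsad2, downregulated, chr12:26456548-26456587, minus strand: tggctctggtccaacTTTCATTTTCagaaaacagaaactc
Socs1, downregulated, chr16:10785589-10785634, minus strand: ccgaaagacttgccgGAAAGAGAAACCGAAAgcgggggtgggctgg
Of the 35 members of both interferon lists with a promoter in the table, 20 held a copy, and of these 5 were upregulated, 14 were not called and 1 was downregulated. Of the 15 without a copy, 3 were upregulated, 11 were not called and 1 was downregulated. A match describes the letters of this window and is not evidence of binding.

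Chemokine receptors define the monocyte populations of the series. Ccr2 had 1240 ± 169 CPM at rest and 1213 ± 98.8 CPM after infusion, and was not called (edgeR adjusted p = 0.842). Ccr1 had 68.9, 75.3, 79.1 and 82.6 CPM at rest and 208, 272, 162 and 167 CPM after infusion. It rose without overlap in cells sorted as lacking the CCR1 reporter (log2 fold change 1.40, SE 0.15, edgeR adjusted p = 1.70e-06). Ccr3 stayed under 1 CPM in every library. Of 17 chemokine receptors, 2 rose and 5 fell, and without resting replicate 1 the 5 became 3. Cx3cr1, which marks patrolling monocytes when high, fell from 484 ± 123 to 239 ± 68.3 CPM, and Cxcr4, which retains cells in the marrow, fell from 15 ± 3.63 to 3.97 ± 0.989 CPM. Cx3cr1 was under 2-fold with DESeq2 and without resting replicate 1, 3 or 4 or inflamed replicate 2. Of 19 chemokine ligands, 3 rose and 6 fell, and the 3 became 5 without resting replicate 1 or inflamed replicate 3. The 6 became 4 without resting replicate 1. The 3 stayed low: Ccl7 had 1.14 to 4.81 CPM after infusion, and Cxcl1 and Cxcl2 stayed under 1 CPM. Ccl5, a T cell attractant, fell from 9.93 to 1.55 CPM, and Cxcl10, an interferon target, fell from 21.9 to 6.70 CPM.

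Of 23 transcription factors of monocytes and dendritic cells, 12 fell and 0 rose (52.2% against 19.2% of all genes), with a median log2 fold change of -1.51. Cebpd, a C/EBP factor of inflammatory macrophages, had 195, 188, 193 and 172 CPM at rest and 2.91, 3.24, 4.73 and 5.49 CPM after infusion. It had the largest decrease of the list (log2 fold change -5.51, SE 0.18, edgeR adjusted p = 1.66e-11). Irf8, which directs monocyte and dendritic cell fate, had 480.1, 479.7, 492 and 525 CPM at rest and 94.6, 57.9, 106 and 81.4 CPM after infusion, and fell without overlap (log2 fold change -2.54, SE 0.16, edgeR adjusted p = 3.89e-09). Cebpa, Cebpb, Klf2, Klf4, Id2 and Runx1 fell as well, with log2 fold changes between -4.25 (Klf2) and -1.28 (Runx1). Zeb2 had 459.7 ± 53.6 CPM at rest and 377 ± 17.1 CPM after infusion and was not called, and neither were Irf4, Bcl6 and Batf, with log2 fold changes of 0.37, -0.03 and 0.07.

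**Figure D3:**
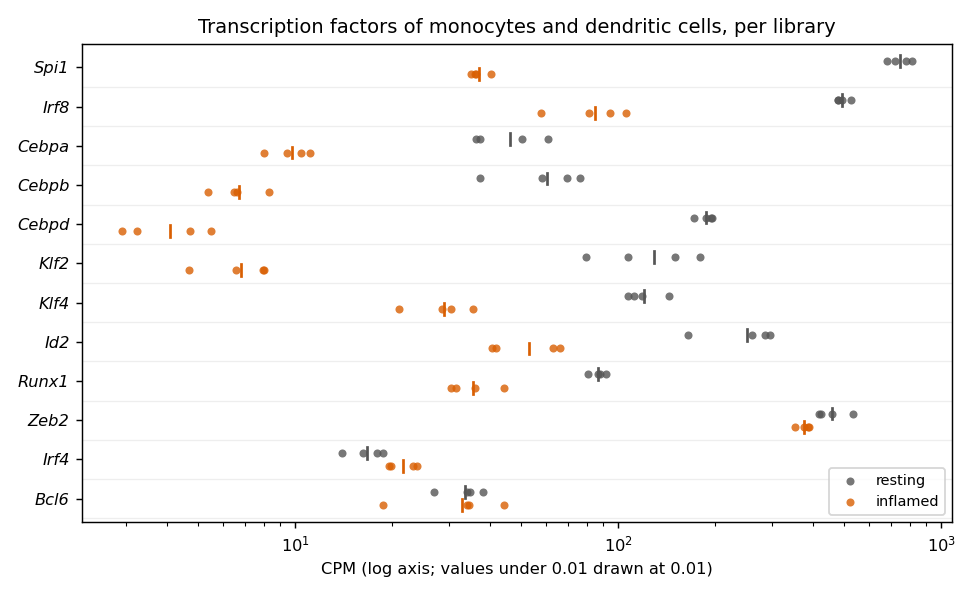
Points are single libraries and short bars the means of 4, in CPM on a log axis, for 12 transcription factors. Spi1, Irf8, the Cebp genes, Klf2 and Klf4 lie lower in every inflamed library than in any resting one, whereas Bcl6 overlaps.

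Feedback genes of the NF-κB pathway and immediate early genes also had members that fell. Of 16 NF-κB genes, 6 fell and 0 rose. Nfkbia, the inhibitor IκBα, fell from 409 ± 43.3 to 63.7 ± 26.6 CPM, and Nfkb2 and Bcl3 fell by 1.71 and 2.14 on the log2 scale, while Rela, the main activating subunit, had 108 and 114 CPM and was not called. Of 21 immediate early genes, 11 fell and 2 rose, with a median of -1.04. Jun, Junb and Dusp1 fell, with log2 fold changes of -3.25, -3.05 and -3.62, whereas Fos (100.3 and 106 CPM), Zfp36 (318 and 319.9 CPM) and Klf6 (411 and 374 CPM) were not called. Immediate early genes also move with tissue handling, and their part in the other results was not tested. Of 19 inflammatory cytokines and regulators, 4 fell and 1 rose, and the 4 became 2 without resting replicate 3 or inflamed replicate 1. Without inflamed replicate 1 the 1 became 2. Tnf fell from 3.58 to 1.25 CPM and Tgfb1 from 19.1 to 7.47 CPM, and the inflammasome sensor Nlrp3 rose from 27 to 56.9 CPM.

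In antigen presentation, a few abundant MHC class I genes fell and most members were not called. H2-D1, a classical class I heavy chain, had 5814, 5062, 5494 and 6400 CPM at rest and 643, 523, 927 and 519 CPM after infusion (log2 fold change -3.12, SE 0.17, edgeR adjusted p = 1.41e-09). It has near-identical relatives between which unique mapping cannot always decide, so its level is uncertain. H2-K1 had 1101 ± 143 and 585 ± 217 CPM and did not reach the fold cutoff. B2m, the class I light chain, fell from 5336 ± 766 to 2029 ± 585 CPM, and Pdia3 (ERp57), which helps to load class I, fell from 1353 ± 88.4 to 159 ± 15.3 CPM. Nlrc5, the class I transactivator, rose from 22 ± 7.21 to 96.2 ± 32.1 CPM. Over the list, 4 of 20 class I genes fell and 1 rose, with a median of 0.06, and the 1 became 2 without resting replicate 3 or 4 or inflamed replicate 4. Of 15 class II genes, 2 rose and 1 fell, and the 2 became 1 without inflamed replicate 3 or 4 and 3 without resting replicate 1. Ciita, the class II transactivator, had 14.7, 4.59, 3.30 and 3.60 CPM at rest and 13.7, 35.2, 76.8 and 37.2 CPM after infusion. It was called (edgeR adjusted p = 0.016) although inflamed replicate 1 lay within the resting range. H2-DMb1, a class II loading factor, rose from 131 to 267 CPM.

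Receptors for antibody, complement and microbes had more increases than the background. Of 20 Fcγ receptor and complement genes, 9 rose and 0 fell (45% against 9.37%), with a median of 0.95. Fcgr1, the high-affinity receptor, had 183, 115, 117 and 139 CPM at rest and 409, 438, 475 and 333 CPM after infusion, and Fcgr2b, the inhibitory receptor, rose from 300.2 ± 38.9 to 878 ± 173 CPM. C3ar1, the C3a receptor, rose from 7.27 ± 0.869 to 85.9 ± 19.6 CPM. Cfp (properdin), which promotes the alternative pathway, rose from 651 ± 29.4 to 1603 ± 111 CPM. Fcer1g, a signalling chain of Fc receptors, had 2371 and 1701 CPM and was not called. Of 20 pattern receptors and their adaptors, 7 rose and 1 fell. Tlr4, the endotoxin receptor, rose from 40.5 ± 5.09 to 125 ± 17.9 CPM and its adaptor Myd88 from 182 ± 16.2 to 435 ± 23.6 CPM, while Ly96 (MD-2), which binds endotoxin for Tlr4, fell from 39.9 ± 3.23 to 14.7 ± 3.96 CPM.

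Of 14 alternative activation genes, 5 rose, with Mrc1 (17.4 to 47 CPM) and Clec10a (42.3 to 87.8 CPM) beside Il4ra, and 2 fell, Chil3 and Chil4, of which Chil3 was lost without resting replicate 3 or 4. Clec10a was under 2-fold without inflamed replicate 4. The 5 became 7 without resting replicate 1. Of 24 adhesion genes, 3 rose, F11r, Itgal and Itgax, and 5 fell. Without inflamed replicate 3 Itgax was no longer called (edgeR adjusted p = 0.0712). Itgb1 and Itgb7, integrin β-chains, fell by 2.14 and 2.73 on the log2 scale, and Cd47, a signal against phagocytosis, fell from 975 ± 119 to 134 ± 19.2 CPM. Of 19 lysosomal genes, 3 rose, Ctsc, Ctsd and Lgmn, and 1 fell, Lamp1, from 1348 ± 115 to 184 ± 55.6 CPM, which became 2 without inflamed replicate 3.

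Of the metabolic groups, glycolysis had the most increases. Of 21 glycolytic genes, 11 rose and 1 fell (52.4% and 4.76%), with a median of 1.01, and 6 more passed the adjusted p with an increase under 2-fold. Eno1 had 1674, 1550, 1943 and 1827 CPM at rest and 5949, 5422, 5360 and 5342 CPM after infusion. Pkm rose from 1904 ± 138 to 4771 ± 344 CPM, and the lactate exporter Slc16a3 (MCT4) rose from 61.6 ± 9.06 to 262 ± 46.5 CPM. In each of these 3 genes all inflamed libraries lay above all resting ones. Ldhb, a lactate dehydrogenase subunit, was the member that fell (82 to 39.2 CPM), and Ldha rose (333 to 731 CPM). Ldhb was under 2-fold without resting replicate 2 or 4 or inflamed replicate 1 or 2, and without inflamed replicate 3 or 4 the members that fell were 2. Nuclear genes of oxidative phosphorylation were mostly not called: 3 of 76 rose and 14 fell, a share near the 19.2% of all genes. Another 25 were higher and 7 lower at an adjusted p under 0.05 but under 2-fold (edgeR). Among the 14, Uqcrfs1, the Rieske subunit of complex III, fell from 281 ± 13.2 to 14.2 ± 1.53 CPM, and Cox5a and Cyc1 fell by 4.46 and 3.58 on the log2 scale. Of 79 cytosolic ribosomal protein genes, 12 fell and 0 rose. Rpl13 fell from 740.1 ± 32.8 to 66.9 ± 9.83 CPM and Rps2 from 398 ± 12.5 to 57.8 ± 6.47 CPM, whereas Rpl4 (1514 and 1667 CPM) and Rplp0 (1394 and 1474 CPM) were not called. In the constitutive proteasome 3 of 23 rose and 1 fell, the 3 becoming 1 with library totals as the only scaling and the 1 becoming 0 without resting replicate 3 or inflamed replicate 4. There, 15 more were higher and 0 lower at an adjusted p under 0.05 but under 2-fold (edgeR). Over all genes tested, 4082 were higher and 4839 lower at that adjusted p without a fold cutoff.

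Of 27 actin cytoskeleton genes, 6 rose and 3 fell, and 18 were not called. Among the 18, 12 were higher and 0 lower at an adjusted p under 0.05 but under 2-fold (edgeR). Myh9, a nonmuscle myosin heavy chain, rose from 81.3 ± 2.60 to 611 ± 109 CPM, and Flna (filamin A) rose from 638 ± 31.5 to 2659 ± 418 CPM. Pfn1 (profilin), which supplies actin monomers, had 2822, 3058, 3256 and 3152 CPM at rest and 189.7, 139.8, 180.4 and 135 CPM after infusion (log2 fold change -4.25, SE 0.14, edgeR adjusted p = 1.23e-11). Pfn1 thus went down where Actb went up, and Tmsb4x and Arpc2 fell by 1.12 and 1.97 on the log2 scale, Tmsb4x being under 2-fold without inflamed replicate 4. In the NADPH oxidase, Rac1 fell from 840.2 ± 62 to 76.2 ± 11.5 CPM. It shares 51.4% of its exonic bases with other genes, so it was not tested among genes that share none. The other 7 genes were not called. All 7 passed the adjusted p (edgeR) but not the fold cutoff. Of these, 4 were higher, including Cyba and the hematopoietic Rac2 (1009 and 1562 CPM), and 3 were lower, including Cybb. Without inflamed replicate 3 the oxidase genes that fell were 2. Of the 6 subunits of the MCM helicase, chosen after their values were seen, Mcm2 and Mcm5 rose by 1.13 and 1.05 on the log2 scale and Mcm3, Mcm4 and Mcm7 had log2 fold changes of 0.47, 0.33 and 0.86. With a correction of each library for GC content Mcm2 and Mcm5 were under 2-fold (0.98 and 0.88), as Mcm5 was without inflamed replicate 1 (0.93). Mcm6 had 191, 237, 224 and 175 CPM at rest and 40.4, 26.5, 27.3 and 26.1 CPM after infusion, and fell. Among ER chaperones and unfolded protein response genes, 3 of 21 rose, Hyou1 (6.96 to 63.6 CPM), Pdia4 and Pdia6, and 8 fell, among them Creld2, Sdf2l1 and Pdia3.

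Cell cycle genes were mostly not called. Of 32 S phase genes, 3 rose and 4 fell, and the 3 became 8 without resting replicate 2, 1 without inflamed replicate 1, 1 with library totals as the only scaling and 0 with the GC correction (edgeR). Of 32 mitotic genes, 6 rose and 3 fell. Under 2-fold but at an adjusted p under 0.05 (edgeR), 12 more S phase genes were higher and 1 was lower. The same held for 13 more mitotic genes that were higher and 1 that was lower. Mki67, the proliferation marker, had 254 and 361 CPM, Top2a 453 and 616 CPM and Rrm2 348 and 369 CPM, and each overlapped between states. Mki67 and Top2a passed the adjusted p (0.011 and 0.0278, edgeR) but not the fold cutoff. Kif20a, a mitotic kinesin, rose from 81.2 ± 8.88 to 259 ± 53.2 CPM, whereas Cdc20, an activator of the anaphase-promoting complex, fell from 137 ± 15.5 to 36.1 ± 12.7 CPM. In the BCL2 family 6 of 15 rose and 2 fell, and the 2 became 1 without inflamed replicate 3. The 6 held the antiapoptotic Bcl2l1 (20.2 ± 2.15 to 65 ± 8.31 CPM) as well as the proapoptotic Bak1 (48.3 ± 2.28 to 281 ± 33.7 CPM) and Bad. Bbc3 (PUMA), a proapoptotic member, fell from 15.2 ± 2.94 to 1.84 ± 0.240 CPM. Of 14 iron handling genes 4 rose and 1 fell, ferritin heavy chain Fth1, from 1189 ± 89 to 127 ± 39.9 CPM, while the light chain Ftl1 had 2173 and 2936 CPM and was not called.

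Markers of other cell types also differed between the states, and their part in the other results was not tested. Of 11 erythroid markers, 9 fell and 0 rose. Hbb-bs, an adult β-globin, had 51.7, 79.6, 48.4 and 139.6 CPM at rest and 1.63, 1.53, 0.899 and 0.172 CPM after infusion, and the markers summed to 104 to 302 CPM at rest and 7.51 to 17.5 CPM after infusion. Globin genes have near-identical copies, so the split among them is uncertain. Of 14 dendritic cell markers, 9 fell and 1 rose, and the 1 became 0 without inflamed replicate 3 (edgeR). The 9 became 7 without resting replicate 1. Cd209a had 141, 68, 70.2 and 82.1 CPM at rest and 0.513, 1.93, 4.68 and 3.78 CPM after infusion, and Flt3, the receptor of dendritic cell and lymphoid progenitors, fell from 32.6 ± 12.4 to 2.45 ± 1.01 CPM. Of 12 stem and progenitor markers, 7 fell and 1 rose, and the 7 became 3 without inflamed replicate 4 and 4 without resting replicate 1. The 1 that rose became 0 without resting replicate 2, 3 or 4 or inflamed replicate 2, 3 or 4. Of 7 basophil and mast cell markers, 5 rose and 0 fell. Prss34, a basophil and mast cell protease, had 3.74, 3.99, 8.48 and 2.57 CPM at rest and 90.9, 139, 153 and 225 CPM after infusion, and Cpa3, a mast cell carboxypeptidase, rose from 0.572 ± 0.408 to 7.57 ± 2.86 CPM. These markers summed to 6.38 to 16.5 CPM at rest and 107 to 246 CPM after infusion.

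Of 16 markers of mature neutrophils, 8 rose and 1 fell. Ltf and Ngp, secondary granule proteins, rose from 6.84 ± 3.34 to 38.1 ± 6.59 CPM and from 27.9 ± 7.95 to 130 ± 26 CPM, and Cd177 fell from 888 ± 203 to 275 ± 78.7 CPM. Ly6g, which the gate excluded, had 0.456 and 0.409 CPM. The summed level of these markers overlapped, at 1760 to 2463 CPM at rest and 2189 to 2348 CPM after infusion. Of 6 early granule genes, 2 fell, including Mpo, with 329, 766, 297 and 152 CPM at rest and 50.3, 59.1, 25.2 and 27 CPM after infusion, and 1 fell without resting replicate 1, resting replicate 2 or inflamed replicate 4. Of 16 tissue macrophage markers, 5 rose and 0 fell, with Axl and Siglec1 among them. In the remaining lists few members passed: the counts that rose and fell were 0 and 2 of 11 for B cells, 1 and 3 of 11 for T and NK cells, 2 and 0 of 5 for eosinophils and 1 and 0 of 7 for megakaryocytes. These few moved with single libraries. The B cell genes that fell became 1 without resting replicate 1 or 2 or inflamed replicate 3. The T and NK cell genes that rose became 2 without inflamed replicate 2, and those that fell became 2 without resting replicate 1. The eosinophil genes that rose became 1 without resting replicate 2 or inflamed replicate 2, and the megakaryocyte genes that rose were 0 to 3. They were 0 without resting replicate 1 or 2 or inflamed replicate 2 or 4, 2 without inflamed replicate 1 and 3 without resting replicate 3 or inflamed replicate 3. B cell markers summed to 794 to 1048 CPM at rest and 856 to 1653 CPM after infusion, most of it Ighm (905 and 1272 CPM). Of 11 mitochondrially encoded genes 0 were called by edgeR, and 4 of them had an adjusted p under 0.05, all lower. Of 8 nuclear noncoding RNAs 1 rose and 2 fell, and the 1 became 0 without inflamed replicate 2. All 50 genes that the study singled out were called as upregulated, and since that list was chosen on these libraries it is not independent evidence.

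**Figure D4:**
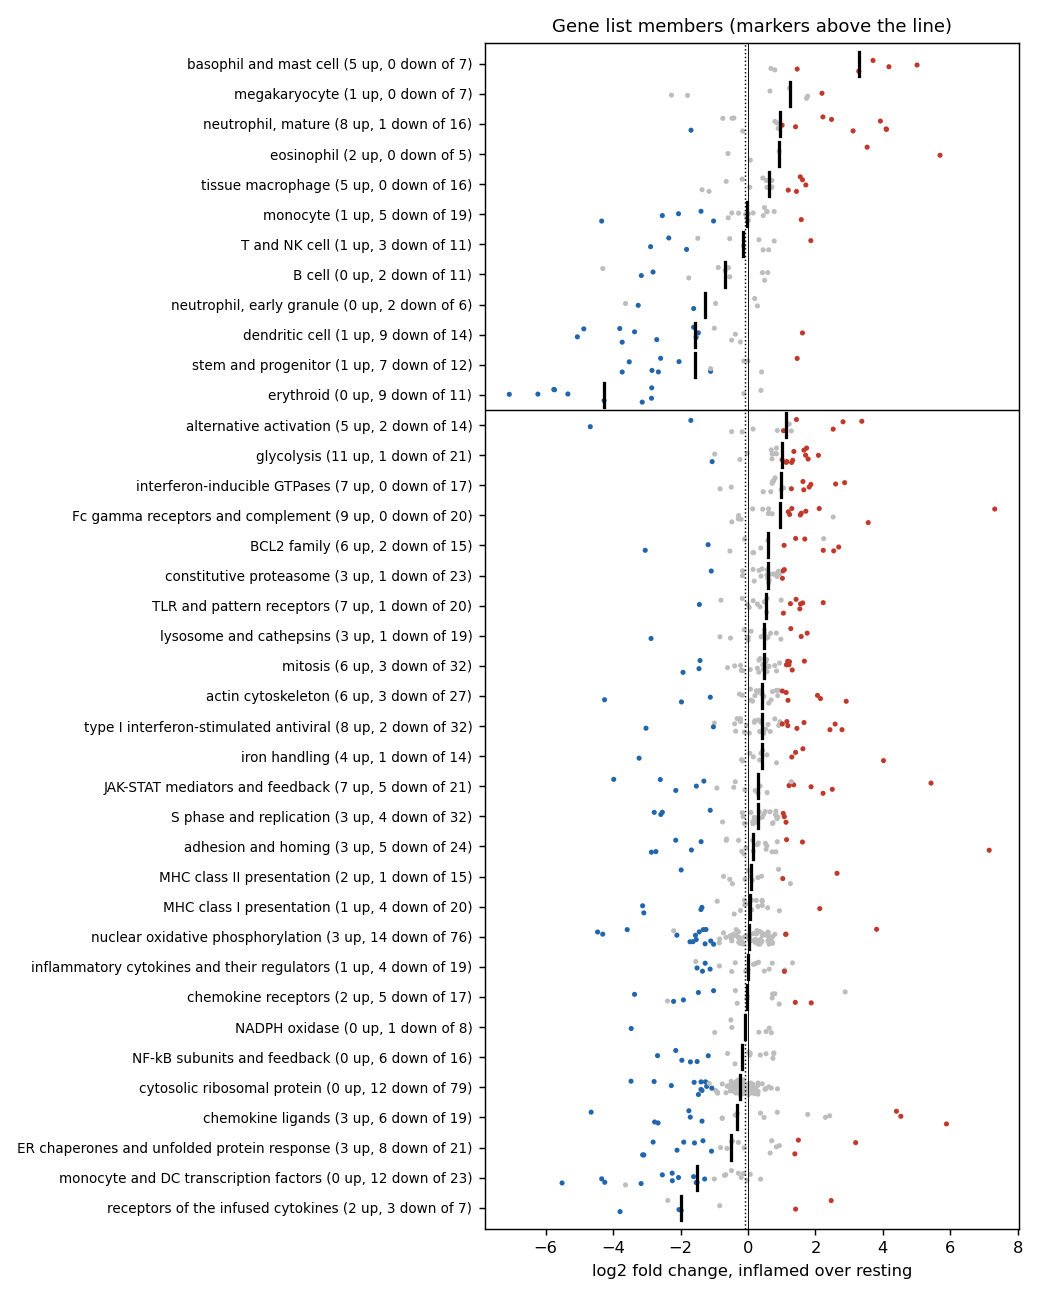
Each point is a member of a gene list at its log2 fold change, coloured where called, with the list's median as a bar and the median of all genes tested as a dotted line. Erythroid (median -4.27), dendritic cell (-1.58) and transcription factor (-1.51) lists lie left of it, and basophil and mast cell (3.28) and glycolysis (1.01) lists lie right.

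The direction of change also varied with gene structure. Among 7397 protein-coding genes with a mean of at least 10 CPM, 11.3% were upregulated and 20.3% were downregulated. Of the 85 of these with a single exon, 48.2% were downregulated and 3.53% were upregulated. Of the 1060 with 21 or more exons, 12.9% were downregulated and 21.9% were upregulated, so that the order of the shares was turned. Ier2 and Cebpb have a single exon, while Flna and Myh9 have 47 and 41. Reads on single-exon coding genes made up 0.897 to 1.11% of each resting library and 0.425 to 0.585% of each inflamed one. Against GC content, the share upregulated was 1.88% under 40% GC and 22.4% between 55 and 60% GC, and over 60% GC 43.0% of 158 genes were downregulated. Of 2248 processed pseudogenes tested, 29.6% were downregulated. The part of exon number in the calls was not tested, and a correction of each library for GC content gave 1694 upregulated and 3553 downregulated genes. Of the 1748 upregulated and 3579 downregulated calls, 1502 and 3358 were kept under the correction. With it, 13 of 134 called genes named here were under 2-fold: Bad, Cebpb, Clec10a, Fn1, H2-DMb1, Itgal, Ldha, Mcm2, Mcm5, Nlrp3, Rsad2, Stat6 and Zbp1. The log2 fold change of Cebpb went from -3.17 to -0.64, that of Cebpa from -2.24 to -1.28, that of Bcl3 from -2.14 to -1.16 and that of Bbc3 from -3.05 to -1.25.

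**Figure D5:**
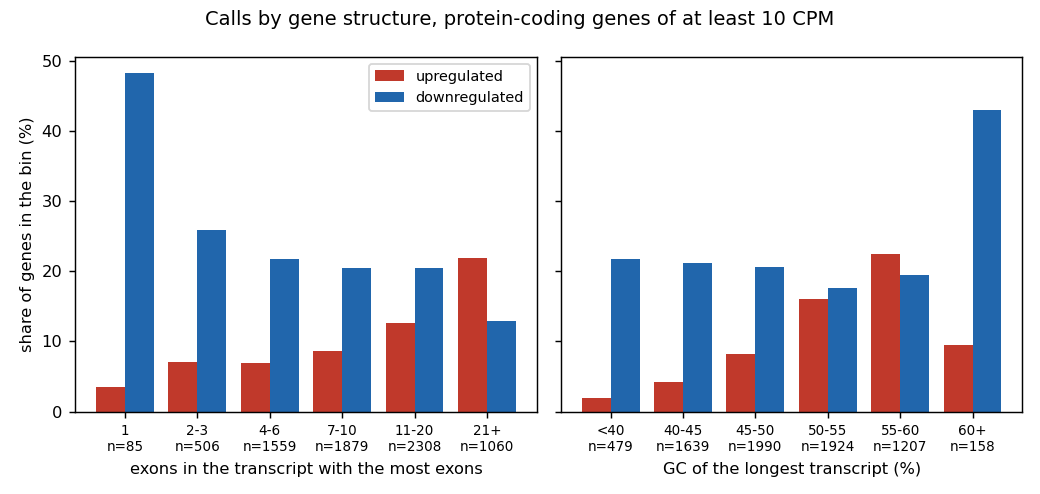
Bars give the share of protein-coding genes with a mean of at least 10 CPM that were upregulated or downregulated, by number of exons and by GC content. From 1 exon to 21 or more, the downregulated share goes from 48.2% to 12.9% and the upregulated share from 3.53% to 21.9%.

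The same infusion was compared in CCR1/2+ve monocytes, which carry both the CCR1 and CCR2 reporters (4 resting and 3 inflamed libraries), to ask whether the CCR2+ve response differed. The effect in CCR2+ve cells was higher than that in CCR1/2+ve cells for 23 genes (0.123% of those tested) and lower for 17 genes (0.0911%), by at least 2-fold at an adjusted p under 0.05 (edgeR interaction over 15 libraries). For genes that led the response no difference was called, and the log2 fold changes in CCR2+ve and CCR1/2+ve cells were -4.34 and -4.22 for Spi1, 7.15 and 7.98 for F11r, and -3.79 and -4.12 for Csf2ra. Fcna (ficolin A) had a log2 fold change of 0.90 in CCR2+ve and -2.23 in CCR1/2+ve cells (difference 3.13, edgeR adjusted p = 0.0173). Cd81, a tetraspanin, had 1.36 and -0.49. In the other direction, Ms4a4a had 0.32 and 1.55, Isg20, an interferon-induced exonuclease, -0.22 and 1.22, and Btg1, an antiproliferative gene, -2.60 and -1.49. Ccr2 itself had -0.03 and 0.80, a difference of -0.83 that passed the adjusted p (0.0478, edgeR) but not the fold cutoff. Like its CCR2+ve counterpart, resting CCR1/2+ve replicate 1 was almost without Xist (1 read). The labels do not say whether same-numbered libraries of a state came from the same mice. The fit treated the 15 libraries as independent, and a pairing within each state was not tested. The count of 40 depended on single libraries, and was 32 without resting CCR2+ve replicate 1 and 58 without resting CCR1/2+ve replicate 1. It fell to 0 without inflamed CCR1/2+ve replicate 3 (edgeR, with 1827 genes at an unadjusted p under 0.05), to 5 without resting CCR1/2+ve replicate 2 or inflamed CCR2+ve replicate 1, to 8 without resting CCR2+ve replicate 3, and to 20 without resting CCR2+ve replicate 4 or inflamed CCR2+ve replicate 2. It grew to 104 without resting CCR2+ve replicate 2 and to 92 without inflamed CCR2+ve replicate 4.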

How the data were processed

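Monocyte RNA was read as paired-end libraries made with a low-input kit that does not mark strand. The authors assessed reads with fastp and aligned them with STAR 2.7.10a to GRCm38 (Ensembl 91). They kept reads with at least 35 matched bases that mapped to 1 place, and deposited raw read counts per gene. Of 20 count columns, 1 had no sample record and was not used. Of 50854 genes, the 18652 that averaged 1 or more reads across all 19 libraries were tested, with TMM scaling and edgeR 4.0.16 (robust quasi-likelihood, R 4.3.3). DESeq2 1.42.0 was an alternative. The steps were tested on simulated data with as many increases as decreases and the spread of the resting libraries in both states. The real libraries differ in both, so that test cannot give their error rates. Exon numbers and GC content came from GENCODE M21, and promoters from RefSeq. Genes were named by rule: the receptors, up to 3 called genes in each direction and the 2 of highest CPM of a list, and 6 in each direction over all genes by p and by CPM difference. From the interaction test, the 3 called genes with the smallest p in each direction were named as well. Other genes, such as Klf2, Stat2 and the MCM subunits, were chosen after their values were seen. The comparison and the 43 gene lists were chosen with earlier results of these data known. Of 867 listed genes 819 were tested. Some genes are not reported here.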

Additional observations from a re-analysis of the deposited data

Results flagged for a closer look

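In a group of 4, a library was picked out where its gap to the nearest other, divided by the range of the group, exceeded Dixon's 95% critical value. This held for 21 of 489 groups of values for named genes and for 3 of 86 sums over gene lists, and chance picks out about 1 in 20. In resting cells the ratio was 0.979 for Csf2rb2, 0.847 for Il2rb, 0.887 for Mcl1, 1.0 for Steap4, 0.839 for Atp5l and 0.859 for Rela, each for replicate 2. It was 0.887 for Ciita, 1.0 for Cxcl2 and 0.886 for Emilin1 in replicate 1, 0.917 for Vwf in replicate 3 and 0.9 for mt-Tp in replicate 4. In inflamed cells it was 0.859 for B2m, 0.968 for Ccl5, 1.0 for Cxcl12, 0.869 for Hyou1 and 0.839 for Ndfip1 in replicate 4. It was 0.916 for Mcm6 and 0.867 for Eno1 in replicate 1, 0.835 for Ftl1 and 0.905 for Uqcrfs1 in replicate 2, and 0.927 for Ccr9 in replicate 3. B2m had 1159 CPM in inflamed replicate 4 against 2253 to 2431 CPM in the others, and Ciita had 14.7 CPM in resting replicate 1 against 3.30 to 4.59 CPM. For the sums, the ratio was 0.845 for eosinophil markers in inflamed replicate 2, 0.856 for adhesion genes in inflamed replicate 3 and 0.913 for lysosomal genes in resting replicate 2.

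Named because they had the smallest p of the edgeR interaction test in each direction, 6 genes differed in response between CCR2+ve and CCR1/2+ve cells. Their passing that test is therefore no added evidence, and 0 genes were called without inflamed CCR1/2+ve replicate 3. The difference of log2 fold changes, CCR2+ve minus CCR1/2+ve, was 3.13 for Fcna, 2.38 for mt-Tp, 1.86 for Cd81, -1.23 for Ms4a4a, -1.12 for Btg1 and -1.44 for Isg20.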

How the results depend on the processing

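Across the alternatives run, no called gene named in the results changed direction. Of 134 such genes, 115 kept both the adjusted p and the 2-fold change under every alternative in which they were tested. Another 16 fell under 2-fold in at least 1, and Chil3, Ciita and Itgax lost the adjusted p. Not all 134 were tested in each: 132 were with the filterByExpr filter of edgeR and 120 among genes with a mean of at least 10 CPM. Only 84 were tested among genes that share no exonic base with another. A GC correction ended 13 calls, library totals as the only scaling 5 (Bad, Clec10a, H2-DMb1, Mcm5 and Zbp1), DESeq2 and RLE factors 2 each (Cx3cr1 and Rsad2), and leaving out 1 library 1 to 4. The upregulated and downregulated counts (1748 and 3579) were 1769 and 3293 with DESeq2, and ranged from 1623 to 1974 and from 3216 to 3478 when 1 library was left out. Without a fold cutoff 4082 genes were upregulated and 4839 downregulated, with a log2 cutoff of 2 the counts were 586 and 2090, and among genes with a mean of at least 10 CPM (chosen after seeing the data) 832 and 1559. A looser cutoff adds genes and a stricter one or fewer genes tested removes them by construction. The share called higher went from 1546 against 3760 with library totals alone to 1863 against 3502 with RLE factors. The deviations of same-numbered resting and inflamed libraries had correlations of -0.295, 0.246, -0.115 and 0.13 over 7594 genes. Those of different-numbered libraries ran from -0.326 to 0.296. With 4 libraries in each state, these values cannot decide whether the numbers pair them. With a replicate block the counts were 1599 and 3324, and the edgeR adjusted p was 0.143 for Chil3, 0.135 for Ciita and 0.054 for Itgax. It ended no other call that the results name. The 40 genes of the interaction became 77 with the replicate block, 82 with the block and a GC correction, 151 with DESeq2 (36 shared with the 40) and 18 among genes that share no exonic base with another, and 0 to 104 when 1 library was left out; the cause was not tested. Depth limits low genes: 3670 genes had at most 3 reads in each library of a state.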
